A study of Mus musculus with 16 samples.

Results

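Wnt2, Wnt2b, Wnt4, Wnt5a, Wnt5b, Wnt6, Wnt9a and Wnt11 encode 8 of the 19 WNT ligands of the mouse. They were taken by name, as the rows of the deposited read count table whose Ensembl identifiers carry these symbols in the GENCODE M21 annotation. The rule uses no measured value, but the list was drawn up with earlier results of these data known. These 8 genes are among 54838 in the table, and all 8 were among the 18214 genes that passed the filter on low counts. Wnt2 and Wnt11 were the sparsest of them, with 4 to 49 and 3 to 109 counts in a library.

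WNT ligands are secreted glycoproteins that carry a lipid. The acyltransferase encoded by Porcn attaches it, and the carrier encoded by Wls takes the ligand to the cell surface. A ligand that binds a Frizzled receptor together with LRP5 or LRP6 stabilises β-catenin, whereas ligands such as WNT5A also signal through ROR2 and RYK without β-catenin. R-spondins bind LGR receptors and withdraw the ubiquitin ligases ZNRF3 and RNF43 from Frizzled receptors, so that a cell responds more strongly to the WNT ligand at hand. In the adrenal cortex, WNT4 comes mainly from cells of the zona glomerulosa beneath the capsule, and R-spondins come from the capsule.

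Messenger RNA was measured by bulk sequencing of whole adrenal glands from mice aged 4 weeks, all on a mixed genetic background, to ask how sex shapes expression in control and Rspo1 gain-of-function (GOF) adrenals. There were 16 libraries from 16 mice, 4 each of female controls, females with Rspo1 GOF, male controls and males with Rspo1 GOF. The promoter or Cre line that drives the GOF allele, and the alleles that control mice carry, are not given in the sources used here. Library totals ran from 31275146 to 43003968 counts. Rspo1 stood at 3.20 to 40.6 counts per 1e6 counts (CPM) in female controls and 354 to 532 CPM in female GOF, and at 19.4 to 48.2 CPM in male controls and 535 to 972 CPM in male GOF. Ddx3y of the Y chromosome had 0 counts in all females and at least 4650 counts in all males, so genotype and sex labels matched the transcripts. Cyp11b2 of the zona glomerulosa had at least 692 counts and Th of the medulla at least 386 counts in every library. Among the controls, 3 libraries held transcripts of another organ: a kidney tubule list of 8 genes reached a summed 1058 CPM in replicate 1 and 172 CPM in replicate 3 of the female controls, and a liver list of 7 genes to 7978 CPM in male control 2. The other libraries had at most 2.28 CPM of the kidney list and 52.0 CPM of the liver list. Values without these 3 libraries are given where they change the call of a ligand or of another gene named. A skeletal muscle list of 6 genes was highest in male control 2 too, at 71.7 CPM, with group medians of 2.22 to 4.20 CPM. Without the 3 libraries 2 of its 4 tested genes were still lower with GOF in each sex, beside 15.2% of all genes in females and 16.8% in males. Since whole glands were sequenced, fewer cells of a type and less RNA per cell cannot be told apart.

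The start regions of 4 of the ligands are shown because these carry the main patterns: Wnt4, which GOF moved in opposite directions in the sexes, Wnt2b and Wnt6, which fell together in both, and Wnt11, whose window at the GENCODE start holds motifs that theirs do not. Each sequence is the RefSeq window on build GRCm38.p6 from 250 bases before to 50 bases after the annotated start, 5′ to 3′ on the gene's strand, with motif matches in capitals. Positions within a window are counted from 1 at its 5′ end.
Wnt4, chr4:137277385-137277684, plus strand: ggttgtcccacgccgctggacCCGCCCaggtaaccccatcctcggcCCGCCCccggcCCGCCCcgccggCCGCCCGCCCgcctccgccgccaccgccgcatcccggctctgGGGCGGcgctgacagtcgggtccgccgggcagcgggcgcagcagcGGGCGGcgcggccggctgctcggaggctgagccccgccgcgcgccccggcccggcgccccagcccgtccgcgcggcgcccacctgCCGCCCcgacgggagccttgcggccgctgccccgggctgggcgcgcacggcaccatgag
Wnt2b, chr3:104961660-104961959, minus strand: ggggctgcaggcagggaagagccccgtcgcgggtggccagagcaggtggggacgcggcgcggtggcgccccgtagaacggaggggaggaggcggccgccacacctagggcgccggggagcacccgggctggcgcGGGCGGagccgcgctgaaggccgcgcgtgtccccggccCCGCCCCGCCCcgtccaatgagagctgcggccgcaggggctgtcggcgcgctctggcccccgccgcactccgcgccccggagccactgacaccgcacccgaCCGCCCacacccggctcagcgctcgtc
Wnt6, chr1:74771642-74771941, plus strand: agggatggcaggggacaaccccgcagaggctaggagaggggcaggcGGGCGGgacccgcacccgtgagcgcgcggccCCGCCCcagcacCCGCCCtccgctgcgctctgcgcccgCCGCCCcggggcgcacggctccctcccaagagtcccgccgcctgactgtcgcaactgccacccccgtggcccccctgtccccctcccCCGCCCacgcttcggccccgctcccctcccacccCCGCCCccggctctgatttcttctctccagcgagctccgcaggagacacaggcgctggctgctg
Wnt11, chr7:98834862-98835161, plus strand: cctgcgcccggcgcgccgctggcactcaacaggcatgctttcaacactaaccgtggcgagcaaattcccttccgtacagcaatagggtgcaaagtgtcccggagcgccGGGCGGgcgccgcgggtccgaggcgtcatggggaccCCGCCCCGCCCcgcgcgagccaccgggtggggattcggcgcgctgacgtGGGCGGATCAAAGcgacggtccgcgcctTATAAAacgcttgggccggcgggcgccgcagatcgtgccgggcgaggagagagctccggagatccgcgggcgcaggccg

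Both strands were searched for CTTTGAT, the TCF/LEF motif through which β-catenin acts, for CAAGGNCA, the motif of the adrenal factor NR5A1, for GACCACCC of the GLI factors, for TATAAA, and for the GC box GGGCGG. The Wnt4 window held 8 GC boxes, of which those at positions 70 and 74 overlap, and none of the other motifs. At least that many GC boxes were found in 0.262% of the 32851 RefSeq windows, and at least 1 in 35.7%. Of its bases 84.3% were G or C, with 51 CG steps, against medians of 52.7% and 7.0 over all windows. The Wnt6 window held 6 GC boxes and the Wnt2b window 4, with no other motif in either. In the Wnt11 window 4 GC boxes stood beside ATCAAAG at position 200, which is CTTTGAT read on the minus strand, and TATAAA at position 222. CTTTGAT was present in 3.73% of all windows, TATAAA in 13.6%, CAAGGNCA in 6.71% and GACCACCC in 0.807%. These matches describe letters and were not tested for binding. The RefSeq start lies 146 bases from the GENCODE gene start for Wnt4 and 212 bases for Wnt2b, and at the same base for Wnt6 and for the Wnt11 window shown. Wnt11 has a second RefSeq window, 3733 bases from the GENCODE start, with 1 GC box and none of the other motifs. Of 3 windows of Wnt5b, which are not shown, 1 also holds CTTTGAT. RefSeq entries were found for 7 of the 8 ligands, all but Wnt5a.

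GOF was accompanied by a change in most of these ligands, and the 8 did not move as a block. In females 6 of 8 passed the test (edgeR's quasi-likelihood test, adjusted p under 0.05 by Benjamini-Hochberg over 18214 genes), 2 higher and 4 lower in GOF. Over all genes tested 39.6% passed, 19.0% higher and 20.6% lower. In males 7 of 8 passed, 1 higher and 6 lower, where 36.9% of all genes passed, 15.2% higher and 21.8% lower. The median difference over the 8 on the log2 scale was -0.93 in females and -1.49 in males, beside 0.052 and 0.0071 over all genes. The same genes that passed were also those whose 4 GOF and 4 control libraries did not overlap, which held for 37.8% of all genes in females and 33.1% in males. The p-values measure the spread between mice of 1 study.

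**Figure D1:**
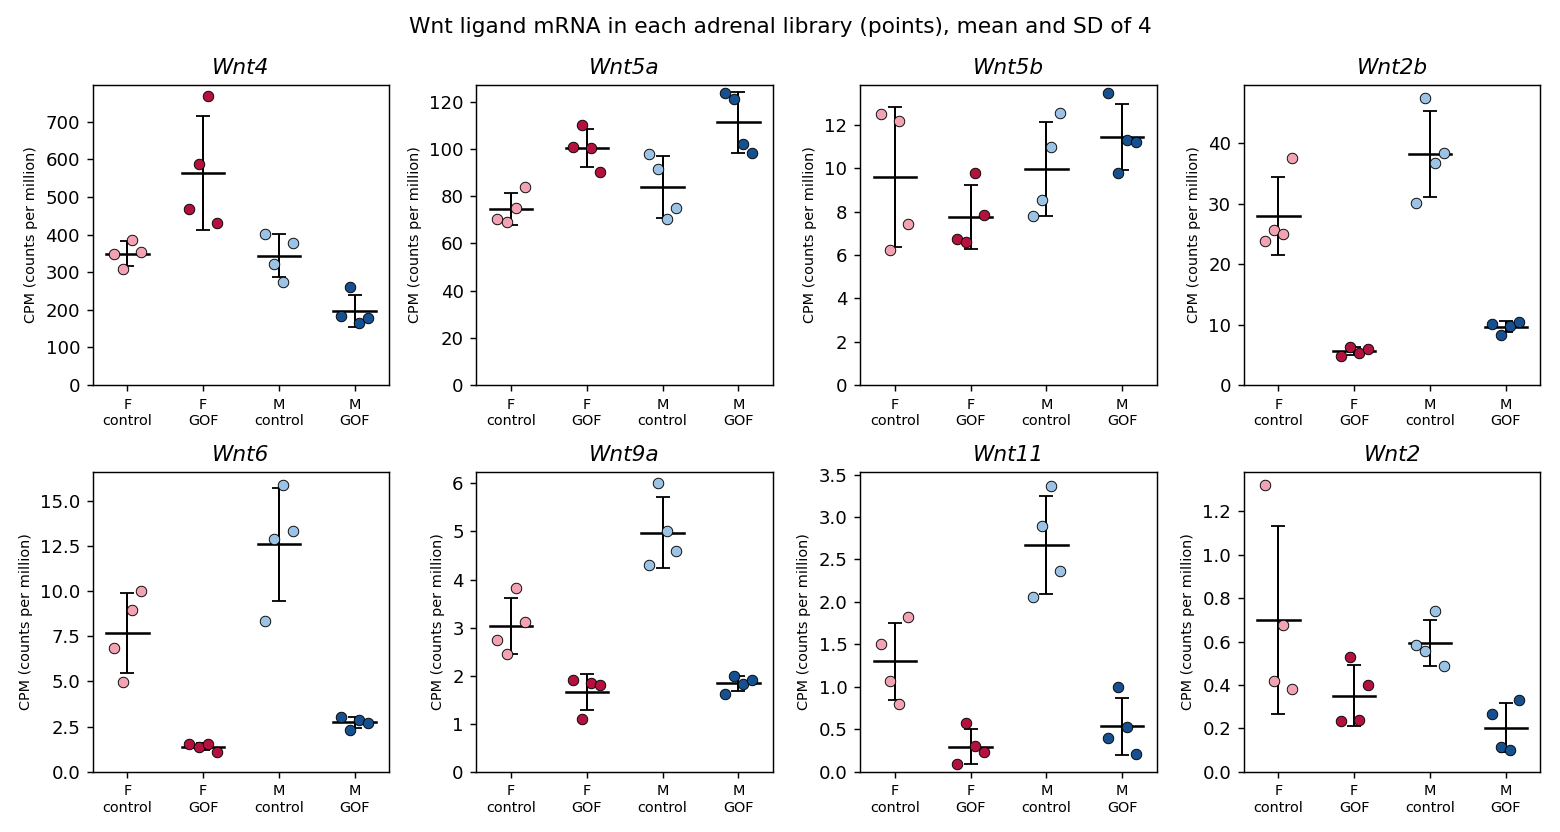
Each panel shows 1 ligand in CPM on a linear axis from 0, with a point per library and the mean and SD of the 4 libraries of a group. Wnt4 is highest in female GOF (429 to 767 CPM) and lowest in male GOF (166 to 261 CPM), while Wnt2b and Wnt6 are low in GOF of both sexes.

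Wnt4 (ENSMUSG00000036856), the ligand of the outer cortex that supports the zona glomerulosa, lies on chromosome 4 from 137277489 to 137299726 on the plus strand of GRCm38. Its level in the 4 female controls was 349, 307, 387 and 354 CPM, and in the 4 female GOF libraries 467, 588, 767 and 429 CPM. In male controls it was 401, 321, 274 and 378 CPM, and in male GOF 185, 261, 166 and 178 CPM. Every female GOF library thus lay above every female control, and every male GOF library below every male control. In females Wnt4 rose 1.61-fold with GOF (95% confidence interval 1.23 to 2.11), a log2 difference of 0.69 ± 0.184 (SE, n = 4 against 4, edgeR adjusted p = 0.00825). In males it fell by 0.80 ± 0.184 on the log2 scale, which is 1.74-fold lower (interval 1.33 to 2.28, edgeR adjusted p = 0.00353).

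The difference between these 2 GOF effects was itself tested. The interaction of sex and genotype for Wnt4 was -1.49 ± 0.260 on the log2 scale (SE, interval -2.04 to -0.93, edgeR adjusted p = 0.00593), and Wnt4 was the only one of the 8 ligands to pass it, where 4.21% of all genes did, 1.59% higher and 2.61% lower. Of all genes tested, 109 (0.598%) passed in both sexes in opposite directions, and 60 (0.329%) of these were higher in female GOF and lower in male GOF, as Wnt4 was. The direction and the call of Wnt4 held in each of 16 fits that left out 1 library, with log2 differences of 0.47 (without female GOF 3, edgeR adjusted p = 0.0453) to 0.77 in females and -0.98 to -0.72 in males. They held as well without the 3 libraries with kidney or liver transcripts, at 0.77 in females and -0.84 in males. The numbers in the sample titles, read as animal numbers, were split here into ranges a to d, and the labels name no batch. Ranges b and c held only females and range d only males. In range a the female GOF library had 467 CPM and the female control 349 CPM. In range b 2 GOF libraries had 588 and 767 CPM against 307 to 387 CPM in 3 controls. Range c held only female GOF 4, at 429 CPM, with no control. In males, range a had 185 and 261 CPM in GOF against 274 to 401 CPM in controls. Range d had 166 and 178 CPM in male GOF against 378 CPM in the male control.

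**Figure D2:**
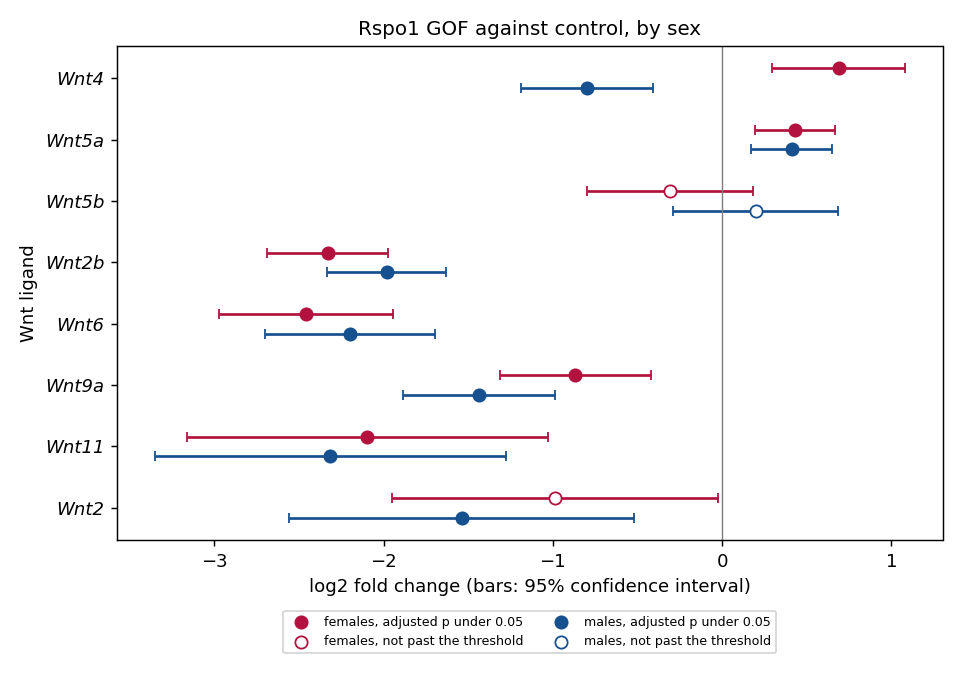
The log2 fold change of GOF against control is plotted on the x axis for each ligand, with females in red, males in blue and bars for the 95% confidence interval. Filled points passed an adjusted p of 0.05, and Wnt4 is the ligand with filled points on opposite sides of 0.

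Wnt5a and Wnt5b encode closely related ligands that act largely without β-catenin. Wnt5a (chromosome 14, 28504750 to 28527448, plus strand) stood at 70.2, 68.9, 74.8 and 83.9 CPM in female controls and 101, 110.2, 101 and 90.2 CPM in female GOF. In males it was 97.9, 91.4, 70.4 and 75.0 CPM in controls and 124, 121, 102 and 98.1 CPM in GOF. The groups did not overlap in either sex, although the highest male control (97.9 CPM) came close to the lowest male GOF library (98.1 CPM). Wnt5a rose with GOF by 0.43 ± 0.112 on the log2 scale in females (SE, edgeR adjusted p = 0.00708) and by 0.41 ± 0.112 in males (adjusted p = 0.0101). Its interaction was -0.020, with an interval of -0.36 to 0.32 (edgeR adjusted p = 0.962). Without the 3 libraries with kidney or liver transcripts its female difference was 0.39 and no longer passed. An antisense gene, Gm2670, shares 358 of the 7823 exon bases of Wnt5a and had 3 to 27 counts in a library, so reads of this pair cannot be told apart there without strand.

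Wnt5b (chromosome 6, 119432531 to 119544347, minus strand) passed in no comparison of the reported fit. It ranged from 6.23 to 12.5 CPM in female controls, 6.60 to 9.80 CPM in female GOF, 7.82 to 12.6 CPM in male controls and 9.77 to 13.5 CPM in male GOF. The GOF difference was -0.31 on the log2 scale in females (interval -0.80 to 0.18, edgeR adjusted p = 0.304) and 0.20 in males (interval -0.29 to 0.69, adjusted p = 0.528). These intervals leave room for a level up to 1.74-fold lower in female GOF and 1.61-fold higher in male GOF. Between the sexes in GOF it was 0.56 higher in males without passing (interval 0.074 to 1.05, edgeR adjusted p = 0.0775). That call depended on the setting: Wnt5b passed under 6 alternatives, with DESeq2 at 0.58, with at least 10 counts in every library at 0.60, with only the groups compared at 0.56, with limma on filtered FPKM at 0.52 (pseudocount 1) and 0.63 (pseudocount 0.1), and without the 3 libraries with kidney or liver transcripts at 0.56 (adjusted p of 0.0303 to 0.0499).

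Wnt2b and Wnt6 fell steeply with GOF in both sexes. Wnt2b (chromosome 3, 104945272 to 104961921, minus strand), a ligand that signals through β-catenin, was at 23.8, 25.6, 24.9 and 37.5 CPM in female controls and 4.82, 6.30, 5.23 and 5.89 CPM in female GOF. In males its controls had 30.2, 47.5, 36.7 and 38.4 CPM and its GOF libraries 10.1, 8.32, 9.77 and 10.5 CPM. The lowest control of either sex was thus over all GOF libraries. With GOF, Wnt2b fell by 2.33 ± 0.168 on the log2 scale in females, 5.02-fold, and by 1.98 ± 0.164 in males, 3.95-fold (SE, edgeR adjusted p = 5.30e-07 and 9.43e-07).

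Wnt6 (chromosome 1, 74771892 to 74785322, plus strand) had 6.87, 4.97, 8.93 and 9.98 CPM in female controls and 1.52, 1.397, 1.55 and 1.12 CPM in female GOF. Male controls had 8.34, 12.9, 15.9 and 13.3 CPM, and male GOF 3.05, 2.31, 2.88 and 2.72 CPM. No GOF library reached any control of its sex. Wnt6 fell by 2.46 ± 0.241 on the log2 scale in females, 5.50-fold, and by 2.198 ± 0.236 in males, 4.59-fold (SE, edgeR adjusted p = 4.34e-06 and 6.07e-06). Neither gene passed the interaction, which was 0.35 for Wnt2b (interval -0.13 to 0.83, edgeR adjusted p = 0.408) and 0.26 for Wnt6 (interval -0.43 to 0.95, adjusted p = 0.689).

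The remaining ligands were scarce. Wnt9a (chromosome 11, 59306928 to 59333552, plus strand) was at 2.75, 2.45, 3.82 and 3.11 CPM in female controls and 1.90, 1.099, 1.85 and 1.80 CPM in female GOF. In males it was at 4.31, 5.998, 5.01 and 4.59 CPM in controls and 1.62, 2.0004, 1.83 and 1.90 CPM in GOF. The GOF libraries of both sexes lay below their controls, 7 of them between 1.62 and 2.0004 CPM and female GOF 2 lower than these. Wnt9a fell by 0.87 ± 0.210 on the log2 scale in females (SE, edgeR adjusted p = 0.00455) and by 1.44 ± 0.211 in males (adjusted p = 9.36e-05), and the interaction of -0.57 (interval -1.20 to 0.058) did not pass (edgeR adjusted p = 0.294).

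Wnt11 (chromosome 7, 98835112 to 98855195, plus strand), a ligand best known for β-catenin-independent signalling, had 1.51, 1.07, 0.800 and 1.82 CPM in female controls and 0.0877, 0.573, 0.299 and 0.229 CPM in female GOF. Male controls had 2.06, 2.90, 3.37 and 2.37 CPM, and male GOF 0.398, 1.0002, 0.526 and 0.211 CPM. The groups were apart in both sexes, on 3 to 25 counts in a female GOF library and 7 to 35 in a male one. Wnt11 fell by 2.10 ± 0.501 on the log2 scale in females (SE, edgeR adjusted p = 0.00422) and by 2.32 ± 0.487 in males (adjusted p = 0.00184). Wnt2 (chromosome 6, 17988940 to 18030585, minus strand) ranged from 0.382 to 1.32 CPM in female controls and 0.234 to 0.527 CPM in female GOF, groups that overlap. In males it ranged from 0.489 to 0.742 CPM in controls and 0.1002 to 0.332 CPM in GOF, groups that do not. Its female difference of -0.99 did not pass (edgeR adjusted p = 0.0970) and was -0.48 without female control 1, the library with the most kidney transcripts, and -0.18 without all 3 libraries with kidney or liver transcripts. Its male fall of 1.54 ± 0.478 passed (SE, edgeR adjusted p = 0.0204), but not when male control 3, male GOF 2 or male GOF 3 was left out, where the difference was -1.42, -1.37 and -1.32, nor with limma on unfiltered log2(FPKM + 1), where it was -0.20.

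The comparison of males with females gave fewer differences. In controls 2 of 8 ligands passed, both higher in males, where 23.4% of all genes passed, 13.5% higher and 9.89% lower. In GOF 3 of 8 passed, 2 higher and 1 lower in males, where 29.6% of all genes did, 13.3% higher and 16.3% lower. Male and female libraries did not overlap for 25.3% of all genes in controls and 29.1% in GOF. Among controls, Wnt9a was higher in males by 0.71 ± 0.207 on the log2 scale (SE, edgeR adjusted p = 0.0223) and its groups did not overlap. Wnt6 was higher by 0.71 ± 0.225 (edgeR adjusted p = 0.0336), with overlap between male control 1 at 8.34 CPM and the females at 8.93 and 9.98 CPM. Both calls rest on few libraries: that of Wnt6 was lost without female control 1, female control 2, male control 2, male control 3 or male control 4, with differences of 0.66, 0.55, 0.70, 0.58 and 0.68. That of Wnt9a was lost without female control 1, female control 2 or male control 2, with differences of 0.67, 0.63 and 0.61. Both were lost without the 3 libraries with kidney or liver transcripts (0.74 for Wnt6 and 0.73 for Wnt9a) and with the number range of the animals as a covariate (0.76 and 0.66), and both without a filter on low counts (0.67 for each). That of Wnt6 was also lost in a fit of the controls alone (0.65) and with limma on unfiltered log2(FPKM + 1) (0.63). The covariate fit compares the sexes directly only in range a, which held 1 female control and 3 male controls. Wnt2b missed the threshold with 0.45 (interval 0.11 to 0.79, edgeR adjusted p = 0.0518), and passed with DESeq2 (0.43), limma on filtered log2(FPKM + 1) (0.44), voom with sample weights (0.46), and without female control 4 (0.62) or male control 1 (0.55). Wnt11 was higher in all 4 male controls than in any female control, at 1.04 on the log2 scale, without passing (interval 0.053 to 2.02, edgeR adjusted p = 0.115). It passed with voom (1.27), with limma on log2(FPKM + 1) whether filtered or not (0.55), and in a fit of the control libraries alone (0.98). For Wnt4 the control difference was -0.024 with an interval of -0.41 to 0.37 (edgeR adjusted p = 0.940), and that interval spans a fold of 0.750 to 1.29.

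Among GOF adrenals Wnt4 was 2.85-fold lower in males (interval 2.16 to 3.76), a log2 difference of -1.51 ± 0.187 (SE, edgeR adjusted p = 4.51e-05), with the highest male at 261 CPM and the lowest female at 429 CPM. Wnt2b and Wnt6 differed the other way, higher in males by 0.80 ± 0.163 (SE, edgeR adjusted p = 0.00196) and 0.97 ± 0.234 (adjusted p = 0.00591). In both, all 4 male GOF libraries lay above all 4 female ones. With the animal number range as a covariate Wnt6 was 0.90 higher and no longer passed, nor did it with limma on unfiltered log2(FPKM + 1), at 0.60. Range a, the only one with both sexes, held 1 female and 2 male GOF libraries. Wnt9a, higher in male controls, was 0.15 higher in male GOF, with an interval of -0.30 to 0.59. The GOF and sex comparisons share the same 4 groups, so their values are not independent of one another.

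**Figure D3:**
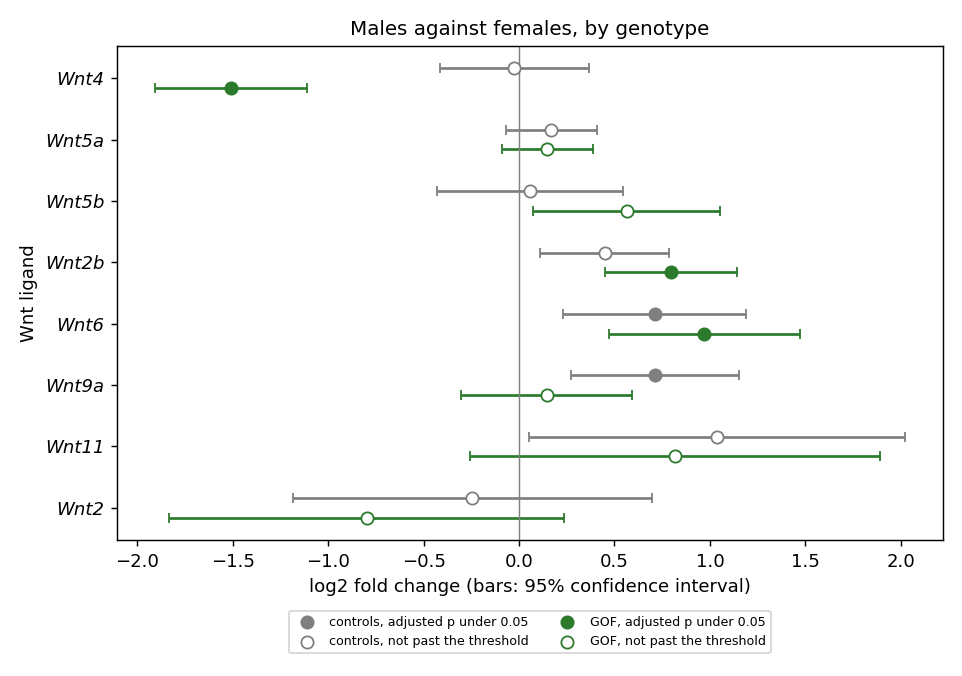
The log2 fold change of males against females is plotted on the x axis for each ligand, in controls (grey) and in GOF (green), with 95% confidence intervals and filled points for an adjusted p under 0.05. Wnt4 lies at -0.024 in controls and -1.51 in GOF.

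Levels of different ligands were compared on FPKM, fragments scaled to a length per gene and to library total, as deposited. The length used was 4194 bases for Wnt4, with 1 annotated transcript, and 2293 for Wnt5a, with 6 transcripts and 7823 exon bases. In both control groups Wnt4 was first, at 80.3 ± 7.93 FPKM in females and 79.7 ± 13.6 in males (SD, n = 4). Wnt5a followed with 31.4 ± 3.40 and 35.4 ± 4.87 FPKM, and Wnt2b with 11.7 ± 2.90 and 16.1 ± 2.95 FPKM, and these 3 did not overlap with each other. Wnt6 (4.97 and 8.21 FPKM) and Wnt5b (4.11 and 4.33 FPKM) came next and their libraries overlapped. Wnt9a, Wnt11 and Wnt2 had at most 1.58 FPKM on average.

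In female GOF the order was Wnt4 at 135 ± 35.1 FPKM, Wnt5a at 44.0 ± 3.71, Wnt5b at 3.46 ± 0.625, Wnt2b at 2.42 ± 0.305 and Wnt6 at 0.938 ± 0.129 FPKM (SD, n = 4), with no overlap from one to the next. Wnt2b, the third in controls, had dropped below Wnt5b. In male GOF Wnt5a at 51.1 ± 4.95 FPKM and Wnt4 at 49.6 ± 9.998 FPKM overlapped, so that on FPKM Wnt4 was no longer set apart. Unscaled by length, Wnt4 (166 to 261 CPM) still lay above Wnt5a (98.1 to 124 CPM) in male GOF. Their order there thus depends on the lengths used. Wnt5b at 5.37 ± 0.696 FPKM and Wnt2b at 4.41 ± 0.470 FPKM overlapped there too.

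As a share of the FPKM summed over the 8 ligands, Wnt4 made up 59.8% ± 2.36 in female controls, 71.7% ± 4.29 in female GOF, 53.9% ± 4.71 in male controls and 43.4% ± 4.36 in male GOF (SD, n = 4). Wnt5a held 23.4%, 24.1% and 24.1% in the first 3 of these groups and 45.2% ± 2.86 in male GOF. The ratio of Wnt4 to Wnt5a in FPKM was 2.57 ± 0.241 in female controls, 3.06 ± 0.760 in female GOF, 2.26 ± 0.354 in male controls and 0.969 ± 0.158 in male GOF. Wnt2b and Wnt6 together gave way in both sexes: Wnt2b went from 8.67% to 1.34% in females and from 11.01% to 3.96% in males, and Wnt6 from 3.64% to 0.511% and from 5.69% to 1.73%. The summed FPKM was 134 ± 14.1 in female controls, 186 ± 37.1 in female GOF, 147 ± 13.5 in male controls and 113 ± 12.4 in male GOF. All female GOF libraries (151 FPKM or more) lay above all female controls (148 or less), whereas in males GOF (103 to 130.3 FPKM) and control (128 to 158 FPKM) overlapped. These shares and sums were not tested.

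**Figure D4:**
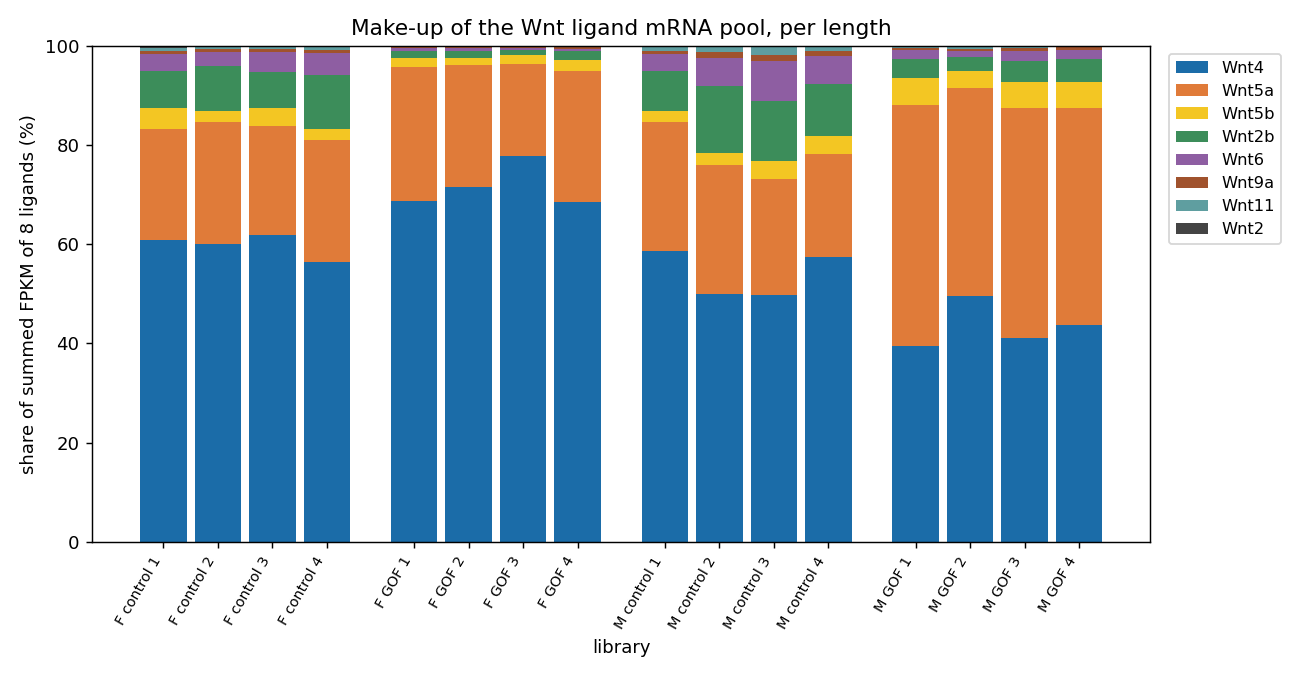
Each bar is 1 library, and its segments are the shares of the 8 ligands in their summed FPKM, from 0 to 100%. The Wnt4 segment is 68.5% or more in all female GOF libraries and 49.5% or less in all male GOF libraries, where Wnt5a takes 42.0% to 48.5%.

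For each ligand with at least 1 CPM in a group, the genes with the most similar pattern were found by the root mean square difference of centred log2 CPM over the 16 libraries. Nearest to Wnt4 were Peg10 (0.267), Lrfn3 (0.276) and Cep126 (0.291), where the spread of Wnt4 around its own mean was 0.582. Peg10, an imprinted gene derived from a retrotransposon, differed by 0.83 on the log2 scale in female GOF and by -0.59 in male GOF, a pattern fixed by this choice and so not a test. Nearest to Wnt2b were Smpx (0.244), Islr (0.248) and Cldn1 (0.256), and nearest to Wnt6 were Islr (0.280), Vit (0.283) and Wnt2b itself (0.287), against their own spreads of 1.13 and 1.24. Wnt5a was nearest to Plekhm2 (0.129), Wnt5b to Sipa1l1 (0.211), Wnt9a to Dact1 (0.241) and Wnt11 to Kcna5 (0.368). The measure describes these 16 libraries only.

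The protein-coding genes on either side of each ligand were examined too. Of 16 neighbours 12 were tested, with 1 higher and 3 lower in female GOF and 2 higher and 4 lower in male GOF. Of all genes 39.6% passed in females, 19.0% higher and 20.6% lower, and 36.9% in males, 15.2% higher and 21.8% lower. Wnt10a, another WNT ligand gene that starts 6194 bases beyond Wnt6, fell by 2.29 in females and by 2.36 in males on the log2 scale (edgeR adjusted p = 0.000245 and 9.51e-05), values near those of Wnt6. It was scarce, at 0.792 ± 0.233 CPM in female controls, 0.161 ± 0.0718 in female GOF, 1.78 ± 0.443 in male controls and 0.344 ± 0.108 in male GOF (SD, n = 4). The neighbours of Wnt4, Zbtb40 and Cdc42, passed in neither sex, at 0.37 and -0.21 on the log2 scale in females and 0.22 and -0.053 in males (edgeR adjusted p of 0.0517 to 0.640).

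Among genes that make and remove ligand, 7 were tested and 2 fell with GOF in each sex, where 20.6% of all genes fell in females and 21.8% in males. These were Notum, a secreted enzyme that strips the lipid from WNT ligands, at -1.44 in females and -1.08 in males on the log2 scale (edgeR adjusted p = 0.00512 and 0.0231), and Trabd2b, a protease that cleaves them, at -2.27 and -1.82 (adjusted p = 4.11e-05 and 0.000208). Porcn and Wls did not pass with GOF in either sex: Porcn differed by 0.17 and -0.033 and Wls by -0.060 and 0.098. They differed between the sexes. Porcn was at 7.54 ± 1.29 CPM in female controls and 14.0 ± 1.38 CPM in male controls (SD, n = 4), 0.89 higher in males on the log2 scale (edgeR adjusted p = 0.000636) and 0.69 higher among GOF (adjusted p = 0.00255). Wls was higher in males by 0.24 in controls (edgeR adjusted p = 0.0465) and by 0.40 in GOF (adjusted p = 0.00214).

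Of 16 receptor genes 6 were higher and 1 lower in female GOF, and 1 higher and 4 lower in male GOF. Both directions together, these counts are near the 39.6% and 36.9% of all genes that passed. By direction, 19.0% of all genes were higher and 20.6% lower in females, and 15.2% and 21.8% in males. Without the 3 control libraries with kidney or liver transcripts, an alternative chosen after seeing the data for these genes, the receptors that passed were 2 higher in females and 4 lower in males. Of all genes 24.1% then passed in females, 8.84% higher and 15.2% lower, and 25.7% in males, 8.94% higher and 16.8% lower. Ror2, a receptor of WNT5A, moved in the same directions as Wnt4: it was at 10.9 ± 1.41 CPM in female controls and 18.2 ± 3.49 in female GOF, and at 15.7 ± 1.42 in male controls and 11.3 ± 1.09 in male GOF (SD, n = 4). It rose by 0.73 in females and fell by 0.47 in males on the log2 scale (edgeR adjusted p = 0.000929 and 0.0165), with an interaction of -1.21 ± 0.200 (SE, adjusted p = 0.00450). Fzd2, a Frizzled receptor, fell by 0.62 in females and 0.85 in males (edgeR adjusted p = 0.0124 and 0.00181), and without those 3 libraries the female value of -0.60 did not pass (edgeR adjusted p = 0.0779). Of 9 secreted antagonists 8 were tested and 5 fell in females and 7 in males, where 20.6% and 21.8% of all genes fell. Without those 3 libraries 4 antagonists fell in females, and 6 fell and 1 rose in males. Sfrp1, which binds WNT ligands outside the cell, dropped to 16.3 ± 4.81 CPM from 67.7 ± 12.9 in females, and to 20.4 ± 2.39 CPM from 72.3 ± 13.8 in males (SD, n = 4), a fall of 2.05 and 1.82 on the log2 scale (edgeR adjusted p = 6.44e-06 and 1.12e-05). Sfrp5, of the same family, fell by 2.37 and 3.04 (edgeR adjusted p = 0.000994 and 0.000133).

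In the R-spondin module of 9 genes 8 were tested. In females 2 were higher with GOF, Znrf3 and the manipulated Rspo1 itself, and 4 lower. In males Rspo1 was the only gene higher, and 5 were lower. Of all genes 19.0% were higher and 20.6% lower in females, and 15.2% and 21.8% in males. Lgr5, an R-spondin receptor and WNT target, fell by 3.68 in females and 4.08 in males on the log2 scale (edgeR adjusted p = 4.48e-06 and 1.45e-06). Of 11 feedback targets of β-catenin, a list that shares Lgr5, Znrf3, Rnf43 and Notum with those above, 4 were higher and 5 lower in female GOF and 3 higher and 6 lower in male GOF. Apcdd1, a membrane protein that dampens WNT signalling, fell by 1.54 and 2.15 (edgeR adjusted p = 1.37e-05 and 9.43e-07). Axin2, the target most often used as a readout and named here for that reason, had 48.1 ± 5.23 CPM in female controls, 78.0 ± 7.19 in female GOF, 79.9 ± 9.11 in male controls and 161 ± 19.9 in male GOF (SD, n = 4). It rose by 0.70 and 1.006 on the log2 scale (edgeR adjusted p = 0.000162 and 6.07e-06). Its interaction was 0.31, with an interval of -0.015 to 0.63, and did not pass (edgeR adjusted p = 0.270). Among the male libraries Wnt4 was thus lower in GOF where Axin2 was higher.

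Markers of several cell types moved in the same comparisons, in which 20.6% of all genes fell in females and 21.8% in males, and 15.2% rose in males. Of 5 zona glomerulosa markers 2 fell in female GOF and 4 in male GOF, and their summed CPM lay at 899 to 957 for female controls, 505 to 668 for female GOF, 976 to 1396 for male controls and 414 to 567 for male GOF. In females this sum was lower where Wnt4 was higher, and in males both were lower. Of 6 capsule markers 5 fell in females and 6 in males, with sums of 417 to 513 CPM, 139 to 292, 477 to 1952 and 296 to 352 CPM in the same order of groups. All 8 medulla markers fell in each sex, their sums dropping to 199 to 777 CPM in females (4775 to 10995 in controls) and to 396 to 897 CPM in males (7651 to 11537 in controls). All 5 Schwann cell markers fell in each sex, and of 6 adipocyte markers 5 fell in females and 6 in males. Their sums went from 21.8 to 82.9 CPM down to 6.81 to 9.71 for Schwann cells and from 1752 to 2165 down to 466 to 905 for adipocytes in females. In males they went from 35.4 to 193 CPM down to 8.29 to 9.70, and from 2318 to 4440 down to 367 to 460 CPM. Of 6 endothelial markers 2 rose in males (1 without the 3 control libraries with kidney or liver transcripts), and in females they differed by -0.25 to 0.51 on the log2 scale (edgeR adjusted p of 0.0923 to 0.503). No marker of the lists above was at 3 counts or fewer throughout a group. The X-zone, a transient inner zone of the mouse cortex that regresses earlier in males, differed by sex and genotype: of its 3 markers, Akr1c18, Pik3c2g and Thrb, 3 fell in female GOF and 2 in male GOF, where Akr1c18 and Pik3c2g did not pass without the same 3 libraries (edgeR adjusted p = 0.0809 and 0.221). Their summed CPM lay at 5122 to 7545 for female controls, 50.9 to 109 for female GOF, 31.9 to 41.1 for male controls and 25.1 to 33.5 for male GOF, where Akr1c18 and Pik3c2g had at most 3 counts in every library. Akr1c18 and Thrb passed the interaction with a positive sign, opposite to that of Wnt4 (edgeR adjusted p = 0.0292 and 0.0263), and Pik3c2g did not pass (adjusted p = 0.337). Without the 3 libraries Thrb did not pass either (1.16, edgeR adjusted p = 0.0977). The part of these cell types in the changes of the ligands was not tested.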

How the data were processed

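Adrenal RNA of 16 mice was measured by 150 bp paired-end sequencing. The submitters' processing notes name Bowtie2 2.2.3, TopHat2 2.0.12, HTSeq 0.6.1 and DESeq 1.18.0, without their settings. The strand setting and the genome build are not given in the sources used here. The authors deposited whole-number read counts per Ensembl gene and FPKM. Gene lengths recovered as counts over FPKM equalled the mean transcript length in GENCODE M21 (GRCm38) within 1 base for 97.79% of 34180 genes. Names and coordinates therefore come from that annotation.

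Groups come from the sample labels. Counts were tested with edgeR 4.0.16 (R 4.3.3), by the robust quasi-likelihood test with TMM factors, filterByExpr, 1 mean per group over all 16 libraries, and 5 contrasts, with Benjamini-Hochberg adjustment over 18214 genes. Levels are CPM, or FPKM between genes. Log2 CPM for likeness used a prior count of 2. No library copied another: the lowest chi-square per degree of freedom over 24 pairs was 29.5. Library totals of 31275146 to 43003968 counts leave ligands under 1 CPM with few counts.

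The 8 ligands, the gene lists and the tests were chosen with earlier results of these data known. All 8 ligands are named. A pathway gene is named if it passed with no overlap in both sexes and reached 1 CPM, up to 2 per list by mean absolute log2 fold change, and Porcn, Wls and Axin2 besides. Values of Znrf3, Wnt16, Wnt9b and Wnt10b are described outside this rule. Alternatives used DESeq2 1.42.0, limma 3.58.1, other factors and filters, the range of animal numbers in the titles, and fewer libraries. Other steps ran in Python 3.11.15 (pandas 2.3.3, numpy 2.4.6), and figures in matplotlib 3.10.9.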

Additional observations from a re-analysis of the deposited data

Results flagged for a closer look

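Wnt2b in female control 4 was at 37.5 CPM, where the other 3 female controls were at 23.8, 24.9 and 25.6 CPM. Its gap to the next library took up 0.866 of the range of the group. Without this library the female fall of Wnt2b still passed.

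Wnt9a in female GOF 2 was at 1.099 CPM, below the other female GOF libraries at 1.80, 1.85 and 1.90 CPM, a gap of 0.876 of the range. These 2 libraries were the ones that stood apart among 32 groups of 4 examined (8 ligands in 4 groups), and chance gives about 1 in 20.

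Wnt4 differed between the sexes in its response to GOF, with an interaction of -1.49 on the log2 scale.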

How the results depend on the processing

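Over all alternatives for single ligands, 609 of the values from leaving out a library kept direction and call, 11 lost the call, 2 gained it and 18 changed sign. Over the other settings these were 437, 21, 13 and 20. The counts of ligands in the GOF comparisons of each sex moved by more than 1.5 times only with a minimum absolute log2 fold change of 1 in females, where 3 of 8 passed. The same minimum left 1 ligand in the comparison of the sexes in GOF. The count in controls was unstable: 2 in the fit reported, 0 without a filter, with the animal number range as covariate, with the minimum of 1 and without the 3 libraries with kidney or liver transcripts (4, 4, 4 and 3 of 8 at an unadjusted p under 0.05, all edgeR), 3 with DESeq2, and 4 with voom with sample weights or limma on log2(FPKM + 1) with a filter on the mean, but 2 with that limma fit without a filter. Leaving out single libraries gave 0 to 3. As a share of counts instead of FPKM, Wnt4 made up 73.7% in female controls, 82.2% in female GOF, 68.9% in male controls and 58.6% in male GOF, the length of 4194 bases behind its FPKM being the longest of those of the 8. The cause of the other changes was not tested.

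Values that changed sign were not past the threshold under the reported fit. The Wnt5a interaction was 0.018 with RLE factors, 0.083 with upper-quartile factors, 0.014 with DESeq2, 0.026 without a filter, 0.056 with at least 10 counts in every library, 0.042 in each of 3 limma fits on FPKM, 0.064 with voom, 0.059 without the 3 libraries, and -0.097 to 0.063 over single libraries left out. The Wnt6 interaction was -0.032 on log2(FPKM + 1) with and without a filter, and that of Wnt5b -0.052 without the 3 libraries. The female GOF difference of Wnt5b was 0.18 without them. Between the sexes in controls, Wnt5b was -0.00275 with only the groups compared and -0.12 with the covariate, Wnt4 was 0.19 with the covariate and 0.084 without the 3 libraries, and Wnt2 was 0.032 with voom and 0.59 without the 3 libraries. Leaving out single libraries gave -0.45 to 0.26 for Wnt2, -0.10 to 0.21 for Wnt5b and -0.11 to 0.070 for Wnt4 there, -0.00135 to 0.21 for Wnt9a in GOF, and -0.68 to 0.35 for the Wnt11 interaction.

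No paired analysis was possible because the replicate numbers only follow the order of the samples and pair no mice. With at least 10 counts in every library Wnt2 and Wnt11 left the test, as did Wnt2 with a mean of at least 0.5 FPKM. On log2(FPKM + 1) the differences of Wnt9a, Wnt11 and Wnt2 shrink, as that scale compresses low values. Depth limits Wnt2 and Wnt11 most.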

Other observations

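Of the other 11 Wnt ligand genes 6 were tested, and 3 fell with GOF in females and 4 in males, with 1 higher in males. Of all genes 20.6% fell in females, and 21.8% fell and 15.2% rose in males. Without the 3 control libraries with kidney or liver transcripts 2 of these ligands fell in each sex. Wnt1, Wnt3a, Wnt7a and Wnt8a had at most 3 counts in every library. Wnt16 fell by 3.31 in females and 3.75 in males on the log2 scale (edgeR adjusted p = 0.00830 and 0.00676), with at most 3 counts in each of the male GOF libraries and 0, 5, 0 and 0 counts in the female ones, so both values depend on the prior count of the fit.

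Wnt9b and Wnt10b are named after their values were seen. Wnt9b ranged over 0.587 to 1.42 CPM for female controls, 0.412 to 0.943 for female GOF, 1.46 to 4.30 for male controls and 3.03 to 5.12 for male GOF. It was higher in males than in females, by 1.39 in controls and by 2.67 ± 0.412 (SE) in GOF on the log2 scale (edgeR adjusted p = 0.0212 and 0.000260). Its interaction of 1.28 did not pass (edgeR adjusted p = 0.208). Wnt10b reached 19.1 CPM in male GOF 4 and at most 1.67 CPM in any other library. It was higher in male GOF than in male controls by 3.52 on the log2 scale (edgeR adjusted p = 0.0185), with overlapping groups. Without male GOF 4, an alternative chosen after seeing the data, the difference was 1.12 and did not pass (edgeR adjusted p = 0.261). Without the 3 control libraries it was 3.44 and did not pass (edgeR adjusted p = 0.0763).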
